A study of Mus musculus with 12 samples.

Results

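Fibronectin, 7 integrin subunits and the hyaluronan receptor CD44 were followed in sorted cells of mouse leukaemias driven by the MLL-AF9 oncogene, a fusion found in human acute leukaemia. The 9 genes were Fn1, Itga4, Itga5, Itgb1, Itgal, Itgam, Itgax, Itgb2 and Cd44, chosen by name out of 22180 genes measured on the arrays. They were chosen with earlier results of these data known. Each was measured by 1 probe set annotated to that gene alone, and all 9 passed the filter on low values. Expression was read with an Affymetrix gene array on 12 samples from 6 leukaemias, all of which carried MLL-AF9. Leukaemias 73, 75 and 79 were labelled wild type for Dnmt3b, and leukaemias 81, 83 and 85 were labelled as Dnmt3b knock-in. Dnmt3b encodes an enzyme that places new methyl groups on DNA, and the series asks what its overexpression does to gene expression in these leukaemias. Cells of each leukaemia were sorted by c-kit into a positive and a negative fraction, which gave 4 groups of 3 arrays. Immature blood cells carry c-kit, the receptor for stem cell factor encoded by Kit. The labels name bone marrow in the titles and leukaemic spleen as the source. Strain, age, the promoter that drives Dnmt3b and whether the numbers stand for separate mice were not given in the sources used here. The p-values therefore measure the spread between arrays of these 6 leukaemias. In the main fit both arrays of a leukaemia were not paired.

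Integrins are cell surface receptors made of an α and a β subunit, which bind matrix proteins or receptors on other cells once they are switched on from inside the cell. Fibronectin is a matrix glycoprotein, and the pairs of α4 (Itga4) or α5 (Itga5) with β1 (Itgb1) are its main receptors on blood cells, with α4β1 also binding VCAM-1 on marrow stroma. The β2 subunit (Itgb2, CD18) is restricted to leukocytes and pairs with αL (Itgal, CD11a), αM (Itgam, CD11b) or αX (Itgax, CD11c) to bind ICAMs, complement fragments and fibrinogen. CD11b rises as myeloid cells mature. CD44 binds hyaluronan and helps leukaemic cells to lodge in the marrow.

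A 300-base window around the start of transcription was read for the 6 genes that RefSeq's promoter table held, which were Itga4, Itga5, Itgam, Itgax, Itgb1 and Cd44. Fn1, Itgal and Itgb2 were not matched. Each window ran from 250 bases before to 50 bases after the start, on build GRCm38.p6. The 3 windows below belong to Itgam, Itgax and Cd44. Of these 6 genes, they were the ones called lower in c-kit-positive than in c-kit-negative cells over both genotypes, at an adjusted p under 0.05. The limma fit used for that choice pairs both fractions of a leukaemia. The windows include those of the neighbours Itgam and Itgax, which follow each other among the protein-coding genes of chromosome 7. They are written 5′ to 3′ on the strand of the gene, and capitals mark GAGGAA, the purine-rich core bound by the myeloid factor PU.1, on either strand, so that TTCCTC is the same motif on the opposite strand.
Itgam, chr7:128062390-128062689, plus strand: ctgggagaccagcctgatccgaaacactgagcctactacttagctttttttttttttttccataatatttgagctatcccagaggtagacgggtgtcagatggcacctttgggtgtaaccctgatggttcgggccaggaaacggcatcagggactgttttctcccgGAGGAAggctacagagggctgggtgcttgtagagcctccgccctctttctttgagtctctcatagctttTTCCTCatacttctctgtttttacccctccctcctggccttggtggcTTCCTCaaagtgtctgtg
Itgax, chr7:128129300-128129599, plus strand: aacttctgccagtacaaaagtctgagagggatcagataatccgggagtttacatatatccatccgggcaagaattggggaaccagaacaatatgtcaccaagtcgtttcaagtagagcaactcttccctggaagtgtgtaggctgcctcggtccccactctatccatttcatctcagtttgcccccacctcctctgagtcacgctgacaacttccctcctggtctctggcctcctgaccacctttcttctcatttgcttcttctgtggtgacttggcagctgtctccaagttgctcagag
Cd44, chr2:102901616-102901915, minus strand: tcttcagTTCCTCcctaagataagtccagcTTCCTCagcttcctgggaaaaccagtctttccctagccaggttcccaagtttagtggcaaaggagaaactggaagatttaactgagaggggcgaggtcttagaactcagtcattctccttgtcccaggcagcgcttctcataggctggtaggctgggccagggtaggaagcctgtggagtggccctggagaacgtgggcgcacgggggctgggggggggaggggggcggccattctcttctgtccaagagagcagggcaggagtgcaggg
The Itgam window held 3 matches to GAGGAA, at -84 on the gene's strand and at -15 and 33 on the opposite strand, counted by their first base from the start. At least 1 match was present in 28.3% of 32851 promoter windows, and at least 3 in 0.685%. The Cd44 window held 2 matches, both on the opposite strand, those of Itga5 and Itgb1 held 1 each, and those of Itgax and Itga4 held 0. The cyclic AMP response element TGACGTCA, searched on both strands, was in none of the 6 windows and in 1.79% of all. CCAAT on either strand was found in the Itgax window alone of the 6, and in 37.4% of all. CpG pairs, the sites of DNA methylation, numbered 27 for Itgb1, 13 for Itga5, 10 for Itga4, 6 for Itgam and Cd44, and 5 for Itgax, with a median of 7 over all windows. These are matches of letters. No binding or methylation was measured here.

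Array medians lay between 5.56 and 5.71 on the log2 scale, and arrays of a group correlated at 0.933 to 0.986. Kit was 2.65-fold higher in the c-kit-positive arrays (log2 difference 1.40, limma with Benjamini-Hochberg adjustment, adjusted p = 7.78e-06) and higher in 6 of 6 leukaemias. Dnmt3b RNA was not detectably higher under the knock-in label, with a difference of 0.03 (95% interval -0.19 to 0.25, adjusted p = 0.964), so genotype groups are called by their label throughout. All 11 markers of MLL-AF9 myeloid progenitors were above the filter on all 12 arrays, and their summed signal was higher in the c-kit-positive fraction of 6 of 6 leukaemias, by 0.60 to 1.40. The summed markers of 12 late neutrophil genes were lower there in 6 of 6, by 0.35 to 1.77 on the log2 scale. The summed markers of dendritic, B, T and NK, and erythroid cells differed between fractions by -0.53 to 0.37. In these bulk samples, fewer cells of a type and less RNA per cell cannot be told apart.

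Fn1 was about 12 times lower in c-kit-positive than in c-kit-negative cells, whichever genotype label the leukaemia carried. In the wild-type leukaemias 73, 75 and 79, the log2 signal of Fn1 was 10.46, 10.24 and 9.15 in c-kit-negative cells and 6.24, 6.31 and 6.27 in c-kit-positive cells. In the leukaemias labelled knock-in, 81, 83 and 85, it was 8.84, 10.08 and 9.63 in c-kit-negative and 5.74, 5.80 and 6.47 in c-kit-positive cells. Every c-kit-negative array was thus above every c-kit-positive array, by more than 2 log2 units. The c-kit-positive values, 5.74 to 6.47, lay not far above the array medians (5.56 to 5.71), so the size of the fold is less certain than its direction. The c-kit-positive arrays of the wild-type leukaemias lay close together (6.27 ± 0.036, mean ± SD, n = 3), whereas the c-kit-negative ones were spread (9.95 ± 0.70, n = 3). The groups labelled knock-in had 6.0 ± 0.41 and 9.52 ± 0.62 (n = 3 each). From high to low the order was wild-type c-kit-negative, knock-in-labelled c-kit-negative, wild-type c-kit-positive and knock-in-labelled c-kit-positive cells, and of these neighbours the pair from different fractions differed beyond its spread, while those that share a fraction overlapped.

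The difference in Fn1 between fractions was -3.59 over both genotypes (SE 0.24, 95% interval -4.11 to -3.08, limma adjusted p = 7.78e-06). It was the most negative difference of the 19152 genes tested. In the wild-type leukaemias it was -3.68, a 12.8-fold lower signal (adjusted p = 0.000598), again the most negative of all genes tested. In the leukaemias labelled knock-in it was -3.51, or 11.4-fold lower (adjusted p = 0.000373), the second most negative. The call in the wild-type leukaemias did not hold without leukaemia 73, where the difference was -3.40 with an adjusted p of 0.0527. Within single leukaemias the difference was -4.22, -3.92 and -2.88 in 73, 75 and 79 and -3.11, -4.28 and -3.16 in 81, 83 and 85. The exact sign-flip test over these 6 differences gave p = 0.031, the smallest that 6 leukaemias allow.

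**Figure D1:**
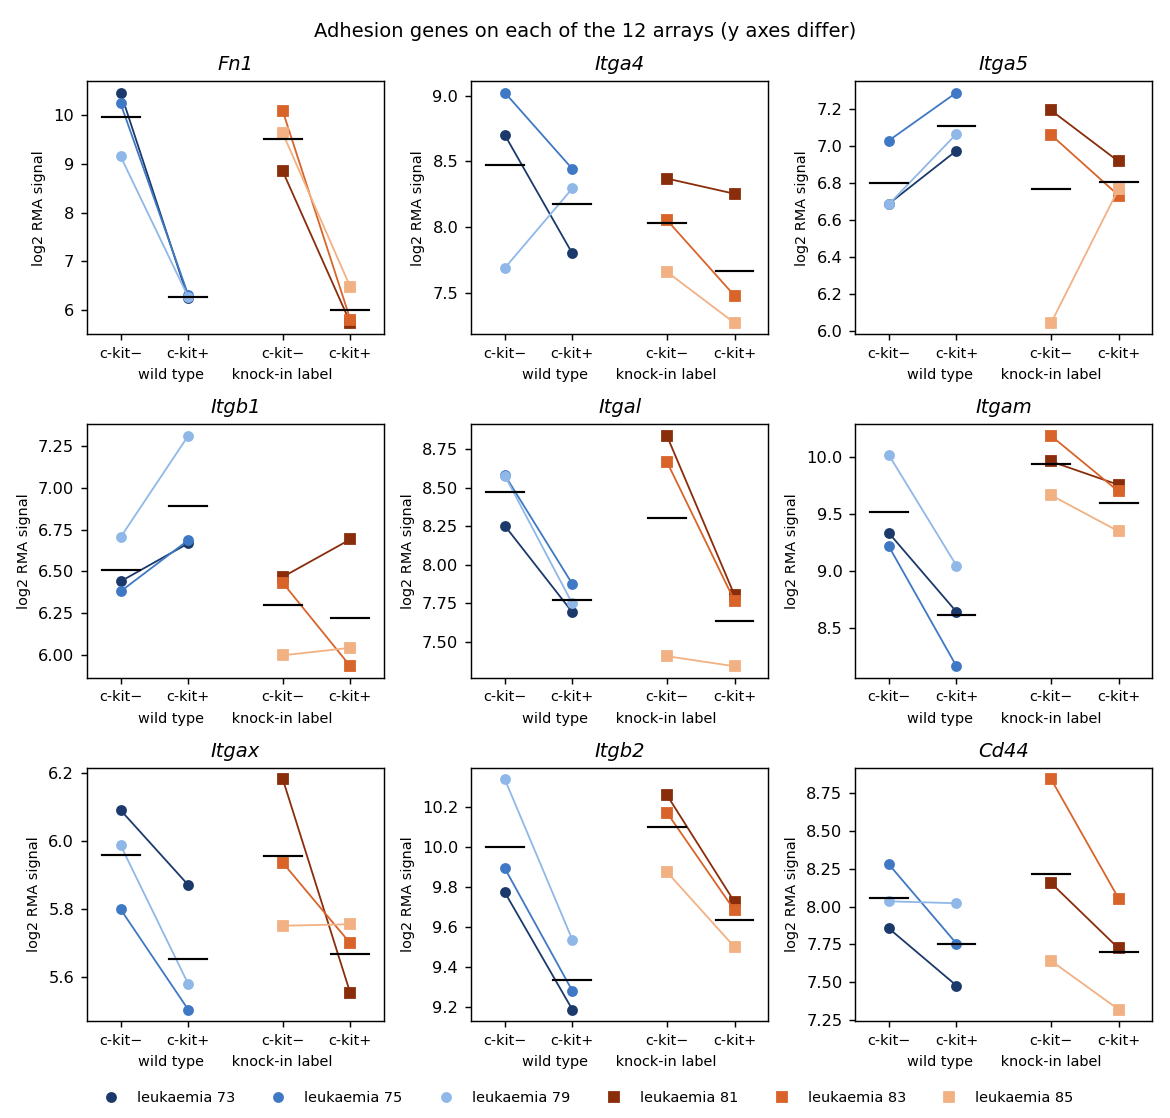
Log2 RMA signal of the 9 genes (1 panel each, with its own y axis) on the 12 arrays, by genotype label and c-kit fraction. Lines join both fractions of a leukaemia and black bars are group means. All 6 lines of Fn1 fall from 8.84 or more in c-kit-negative cells to 6.47 or less in c-kit-positive cells, while those of Itga4, Itga5, Itgb1 and Itgax run in both directions.

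Fibronectin is also made by stromal cells and carried by platelets, so markers of other cell types were read beside it. The 11 fibroblast and stromal markers, all measured, summed to a log2 signal of 8.99 to 9.28 in wild-type c-kit-positive and 9.05 to 9.15 in wild-type c-kit-negative cells. Under the knock-in label the sums were 8.94 to 9.10 and 8.91 to 9.19. The sum differed between the fractions of a leukaemia by -0.09 to 0.13, and the stromal genes Dcn, Lum and Postn were at or below the filter on all arrays. Endothelial markers (9 of 9 measured) summed to 8.38 to 8.47 in wild-type c-kit-positive, 8.48 to 8.61 in wild-type c-kit-negative, 8.36 to 8.58 in knock-in-labelled c-kit-positive and 8.42 to 8.64 in knock-in-labelled c-kit-negative cells. They were lower in the c-kit-positive fraction of 6 of 6 leukaemias, by no more than 0.13 on the log2 scale. Only 7 of the 11 stromal and 6 of the 9 endothelial markers were above the filter on all arrays. Sums over genes of low signal can move little, so these sums do not show that both fractions held equal shares of such cells. Megakaryocyte and platelet markers (7 of 10 measured) summed to 8.92 to 9.06, 9.04 to 9.91, 9.14 to 9.20 and 9.01 to 9.42 in the same order of groups. They were lower in the c-kit-positive fraction of 5 of 6 leukaemias, with differences from -0.85 to 0.19.

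Monocyte and macrophage markers (13 of 14 measured) summed to 11.87 to 12.23, 11.84 to 12.11, 11.66 to 11.82 and 11.60 to 12.49 in that order and were lower in the c-kit-positive fraction of 3 of 6 leukaemias, with differences from -0.67 to 0.39. Of the 12 tested, 5 fell and 0 rose, among them Csf1r, the receptor of macrophage colony-stimulating factor (-1.46, adjusted p = 0.0019). Over all genes tested, 2.41% fell and 5.84% rose. Vcam1, of the same list, went the other way without passing (0.89, limma adjusted p = 0.136), and was higher in the c-kit-positive fraction of 6 of 6 leukaemias. The part of the monocyte and macrophage markers in the Fn1 difference was not tested.

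Among the fibronectin receptors, no difference between the fractions passed the test. Itga4, the α4 subunit, had log2 signals of 7.80, 8.44 and 8.29 in c-kit-positive and 8.70, 9.03 and 7.69 in c-kit-negative cells of leukaemias 73, 75 and 79. In 81, 83 and 85 it had 8.25, 7.48 and 7.27 in c-kit-positive and 8.37, 8.05 and 7.66 in c-kit-negative cells. It was lower in the c-kit-positive fraction of 5 leukaemias and 0.61 higher in leukaemia 79. The mean difference was -0.33 (95% interval -0.83 to 0.18, adjusted p = 0.426), and the 4 groups overlapped in the order wild-type c-kit-negative (8.47 ± 0.70), wild-type c-kit-positive (8.18 ± 0.34), knock-in-labelled c-kit-negative (8.03 ± 0.36) and knock-in-labelled c-kit-positive (7.67 ± 0.52, SD, n = 3 each).

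Itga5, the α5 subunit and partner of β1 in the classical fibronectin receptor, was 6.98, 7.29 and 7.07 in c-kit-positive and 6.69, 7.03 and 6.68 in c-kit-negative wild-type cells. In 81, 83 and 85 it was 6.92, 6.73 and 6.77 in c-kit-positive and 7.19, 7.06 and 6.04 in c-kit-negative cells. The c-kit-positive fraction was the higher in all 3 wild-type leukaemias and in 85, and the lower in 81 and 83. Over all leukaemias the difference was 0.18 (95% interval -0.18 to 0.53, adjusted p = 0.554). The c-kit-negative array of leukaemia 85, at 6.04, was the lowest of the 12. Group means ran from 7.11 ± 0.16 in wild-type c-kit-positive cells to 6.77 ± 0.63 in knock-in-labelled c-kit-negative cells (SD, n = 3), with 6.81 ± 0.098 and 6.80 ± 0.20 for knock-in-labelled c-kit-positive and wild-type c-kit-negative cells between them.

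Itgb1, the β1 subunit shared by both receptors, was 6.67, 6.69 and 7.31 in c-kit-positive and 6.44, 6.38 and 6.70 in c-kit-negative wild-type cells. Knock-in-labelled leukaemias had 6.69, 5.93 and 6.04 in c-kit-positive and 6.47, 6.43 and 6.0 in c-kit-negative cells. It was higher in the c-kit-positive fraction of 5 leukaemias and lower in 83, by -0.50. The difference was 0.38 in the wild-type leukaemias and -0.08 under the knock-in label, and 0.15 over both (95% interval -0.18 to 0.48, adjusted p = 0.584). The order of the groups was wild-type c-kit-positive (6.89 ± 0.37), wild-type c-kit-negative (6.51 ± 0.17), knock-in-labelled c-kit-negative (6.30 ± 0.26) and knock-in-labelled c-kit-positive (6.22 ± 0.41, SD, n = 3 each), and neighbours in this order overlapped. Intervals for all 3 receptor subunits reach from a fall to a rise, and a p above the threshold does not show that the fractions are alike.

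Of the leukocyte integrins, Itgb2, Itgam and Itgal were lower in the c-kit-positive fraction of 6 of 6 leukaemias, and Itgb2 and Itgam passed the test. Itgb2, the β2 subunit common to all 3 pairs, was 9.19, 9.28 and 9.54 in c-kit-positive and 9.77, 9.89 and 10.34 in c-kit-negative cells of 73, 75 and 79. In 81, 83 and 85 it was 9.73, 9.68 and 9.50 in c-kit-positive and 10.26, 10.17 and 9.88 in c-kit-negative cells. No c-kit-positive array reached the lowest c-kit-negative array. The drop was 1.48-fold over both genotypes (log2 difference -0.57, SE 0.11, 95% interval -0.81 to -0.33, limma adjusted p = 0.00785), with an adjusted p of 0.0516 without leukaemia 83. It was -0.67 in the wild-type leukaemias (adjusted p = 0.071) and -0.47 under the knock-in label (adjusted p = 0.182). With the leukaemia number as a replicate block both of these passed, with adjusted p-values of 0.00197 and 0.00874. The wild-type difference also passed without leukaemia 81 (adjusted p = 0.041) or 85 (adjusted p = 0.0382). Group means were 10.10 ± 0.20 and 10.00 ± 0.30 in knock-in-labelled and wild-type c-kit-negative cells, which overlapped, then 9.64 ± 0.12 and 9.34 ± 0.18 in the c-kit-positive cells (SD, n = 3 each), which overlapped too.

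Itgam, the αM chain (CD11b), was 8.64, 8.16 and 9.05 in c-kit-positive and 9.33, 9.22 and 10.02 in c-kit-negative wild-type cells. Under the knock-in label it was 9.76, 9.70 and 9.35 in c-kit-positive and 9.96, 10.19 and 9.67 in c-kit-negative cells. In the wild-type leukaemias the fractions did not overlap, whereas under the knock-in label they did. Itgam fell 1.54-fold over both genotypes (log2 difference -0.62, SE 0.17, 95% interval -0.99 to -0.25, adjusted p = 0.0400). That call lay near the threshold. It was lost when each array was centred on its median (adjusted p = 0.0798) and without leukaemia 73 (0.108), 75 (0.0942), 81 (0.0551), 83 (0.152) or 85 (0.0575), while the difference stayed between -0.67 and -0.58. The difference was -0.90 in the wild-type leukaemias (adjusted p = 0.0948, and 0.000654 with the replicate block) and -0.34 under the knock-in label (adjusted p = 0.637).

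Itgal, the αL chain of LFA-1, was 7.69, 7.88 and 7.75 in c-kit-positive and 8.25, 8.58 and 8.58 in c-kit-negative wild-type cells, which did not overlap. The values in 81, 83 and 85 were 7.80, 7.76 and 7.34 in c-kit-positive and 8.84, 8.67 and 7.40 in c-kit-negative cells. Leukaemia 85 stood low in both fractions and its difference was -0.07, against -1.04 to -0.56 in the other 5. The mean difference of -0.69 (SE 0.20, 95% interval -1.12 to -0.25) missed the threshold at an adjusted p of 0.0531. It passed with the replicate block (adjusted p = 0.00124), with quantile normalization repeated (0.0165), with a stricter filter at the 50th percentile (0.0446) and without leukaemia 85 (-0.84, 0.000496). Within a genotype label it was -0.70 and -0.67 for wild type and knock-in label, with adjusted p-values of 0.248 and 0.339, and of 0.0166 and 0.0208 with the replicate block. Without leukaemia 85 these were -0.70 and -0.97, with adjusted p-values of 0.0155 and 0.00694.

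Itgax, the αX chain (CD11c), had log2 signals of 5.87, 5.51 and 5.58 in c-kit-positive and 6.09, 5.80 and 5.99 in c-kit-negative wild-type cells. Leukaemias 81, 83 and 85 had 5.55, 5.70 and 5.76 in c-kit-positive and 6.18, 5.94 and 5.75 in c-kit-negative cells. All these values, 5.51 to 6.18, lay near the array medians (5.56 to 5.71), so the differences in Itgax are small ones at low signal. It was lower in the c-kit-positive fraction of 5 leukaemias, and leukaemia 85 showed no difference (0.00). The mean difference of -0.30 (SE 0.095, adjusted p = 0.0772) passed with the replicate block (adjusted p = 0.0265) and without leukaemia 85 (-0.37, adjusted p = 0.0419). Groups of a fraction had almost the same mean under both labels, 5.96 ± 0.15 and 5.96 ± 0.22 in c-kit-negative and 5.65 ± 0.19 and 5.67 ± 0.10 in c-kit-positive cells (SD, n = 3 each).

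Cd44 was 7.48, 7.76 and 8.02 in c-kit-positive and 7.86, 8.28 and 8.03 in c-kit-negative wild-type cells. Under the knock-in label it was 7.72, 8.05 and 7.32 in c-kit-positive and 8.16, 8.84 and 7.64 in c-kit-negative cells. The fractions overlapped in both, although the c-kit-positive fraction was the lower in 6 of 6 leukaemias, by 0.01 in leukaemia 79 and by 0.32 to 0.79 in the others. The mean difference was -0.41 (SE 0.19, 95% interval -0.81 to -0.01, adjusted p = 0.206). It passed with the replicate block over both genotypes (adjusted p = 0.00592) and under the knock-in label (-0.51, adjusted p = 0.0221, against 0.455 without the block). Group means of Cd44 were 8.21 ± 0.60 and 8.06 ± 0.21 in knock-in-labelled and wild-type c-kit-negative cells and 7.75 ± 0.27 and 7.70 ± 0.37 in wild-type and knock-in-labelled c-kit-positive cells (SD, n = 3 each), with overlap between neighbours.

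**Figure D2:**
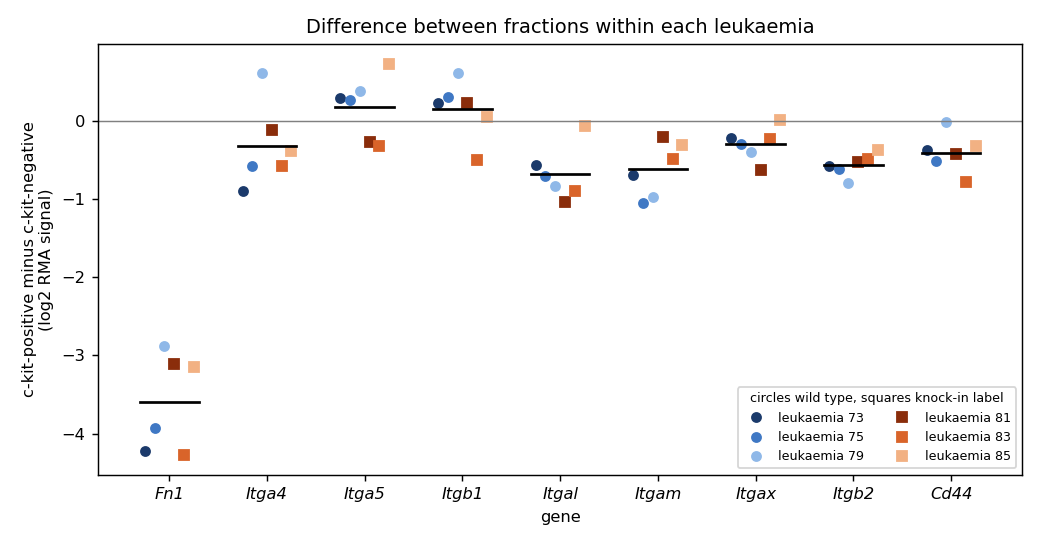
Difference in log2 RMA signal between the c-kit-positive and the c-kit-negative array of each leukaemia, 1 point per leukaemia, with a bar at the mean of the 6. Fn1 lies between -4.28 and -2.88, the 6 values of Itgb2 stay between -0.80 and -0.38, and those of Itga4, Itga5 and Itgb1 fall on both sides of 0.

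Counted together, 3 of the 9 genes (Fn1, Itgb2 and Itgam) fell in c-kit-positive cells over both genotypes and 0 rose, against 2.41% of all 19152 genes that fell and 5.84% that rose. In the wild-type leukaemias 1 of 9 fell (Fn1, background 0.371%), and 1 of 9 under the knock-in label (Fn1, background 0.752%). With the replicate block, 4 of 9 fell in the wild-type leukaemias (Fn1, Itgal, Itgam and Itgb2, background 3.05%), 4 of 9 under the knock-in label (Fn1, Itgal, Itgb2 and Cd44, background 2.75%) and 6 of 9 over both (those 5 and Itgax, background 6.61%). The fractions did not overlap, with c-kit-positive lower, for 4 genes in the wild-type leukaemias (Fn1, Itgal, Itgam and Itgb2, background 13.2%), and for Fn1 and Itgb2 under the knock-in label (6.38%) and over all 12 arrays (1.26%). The c-kit-positive fraction was lower in 6 of 6 leukaemias for 5 of 9 genes (Fn1, Itgal, Itgam, Itgb2 and Cd44), which held for 8.97% of all genes, each with an exact sign-flip p of 0.031, the smallest possible. For Itgax that p was 0.0625, for Itga4 0.219, and for Itga5 and Itgb1 0.344. The median difference of the 9 genes was -0.41, beside -0.03 over all genes tested. Because the 9 genes were chosen with earlier results of these data known, these counts describe them and give no independent support.

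Markers of late neutrophils moved with the leukocyte integrins. The 12 genes, among them the granule proteins Ltf and Mmp8 and the surface marker Ly6g, summed to a log2 signal of 12.10 to 13.33 in wild-type c-kit-positive and 13.21 to 13.87 in wild-type c-kit-negative cells. Under the knock-in label the sums were 13.68 to 14.01 and 14.13 to 14.42. Of the 12, 7 fell in c-kit-positive cells and 0 rose, with a median difference of -0.91. Over all genes tested, 2.41% fell and 5.84% rose, with a median of -0.03. The part of the late neutrophil markers in the differences of Itgb2, Itgam and Itgal was not tested.

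No difference between the genotype labels passed the test for any of the 9 genes, in either fraction or over both. Over all genes tested, 0.141% passed in c-kit-positive cells, 0.0627% in c-kit-negative cells and 0.0261% over both fractions. Before adjustment, limma gave a p under 0.05 for 2 of the 9 in c-kit-positive cells (Itgam and Itgb1), for 0 in c-kit-negative cells and for the same 2 over both fractions. The shares of all genes under that unadjusted rule were 9.89%, 6.1% and 8.37%. Itgam had the smallest p of the 9. In c-kit-positive cells it was 0.98 higher under the knock-in label (95% interval 0.47 to 1.5, limma adjusted p = 0.163, and 0.103 with the replicate block). Its 3 arrays labelled knock-in (9.35 to 9.76) were all above the 3 wild-type arrays (8.16 to 9.05), a separation in this direction seen for 7.56% of all genes. In c-kit-negative cells Itgam was 0.42 higher with overlapping groups (95% interval -0.10 to 0.93, adjusted p = 0.876). Over both fractions the difference was 0.70 (95% interval 0.23 to 1.17, adjusted p = 0.387, exact permutation p = 0.2, where 3 against 3 cannot go below 0.1).

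The summed late neutrophil markers given above were also higher under the knock-in label, without overlap between the labels in either fraction. Among single genes, 7.56% of all tested were separated in this direction in c-kit-positive and 4.22% in c-kit-negative cells. In c-kit-positive cells 3 of the 12 rose under that label, Ltf (2.48, adjusted p = 0.0071), Ly6g (2.09, adjusted p = 0.0071) and S100a8 (1.80, adjusted p = 0.0417), and 0 fell. Over all genes tested, 0.0574% rose and 0.0835% fell in that comparison. In c-kit-negative cells 3 of the 12 rose and 0 fell, against 0.0574% and 0.00522% of all genes tested. Over both fractions 2 rose and 0 fell, against 0.0209% and 0.00522%. The part of the late neutrophil markers in the Itgam difference was not tested. Itgb2, the partner of Itgam, was 0.30 higher in c-kit-positive and 0.10 higher in c-kit-negative cells under the knock-in label, and 0.20 over both (95% interval -0.11 to 0.51, adjusted p = 0.778).

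The β1 receptor genes and Fn1 had lower means under the knock-in label. Itgb1 differed by -0.67 in c-kit-positive cells (95% interval -1.14 to -0.20, adjusted p = 0.296), by -0.21 in c-kit-negative cells and by -0.44 over both (95% interval -0.83 to -0.04, adjusted p = 0.540). Itga4 differed by -0.51 and -0.44 in the 2 fractions and by -0.48 over both (95% interval -1.03 to 0.07). Itga5 was -0.31 in c-kit-positive cells, where the arrays labelled knock-in (6.73 to 6.92) were all below the wild-type arrays (6.98 to 7.29). That separation was shared by 9.88% of all genes. In c-kit-negative cells Itga5 was -0.04, a sign that turned without leukaemia 75 or 85, and over both fractions it was -0.17. Fn1 differed by -0.27 in c-kit-positive and -0.43 in c-kit-negative cells and by -0.35 over both (95% interval -0.87 to 0.17, adjusted p = 0.756). None of these passed after adjustment, and the design of 3 against 3 leaves wide intervals.

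The other genes differed between the labels by less than their error. Itgal was -0.15 over both fractions (95% interval -0.67 to 0.36), and Cd44 was 0.05 (95% interval -0.45 to 0.56). Itgax was 0.01 (95% interval -0.23 to 0.24), and its sign turned when the arrays were normalized again or centred. The median of the 9 genes over both fractions was -0.15, beside 0.01 over all genes tested.

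**Figure D3:**
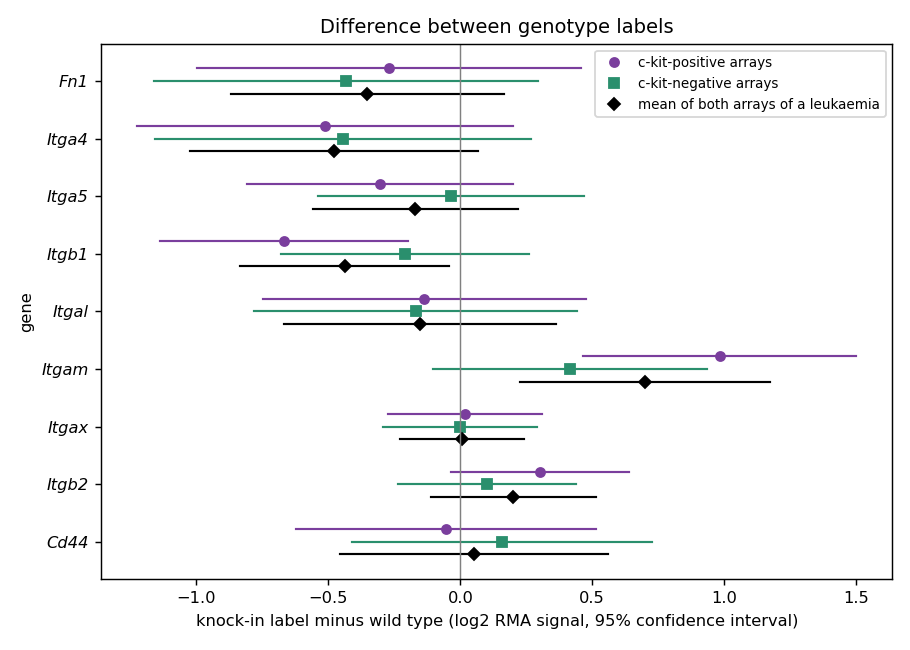
Difference in log2 RMA signal between leukaemias labelled knock-in and wild-type leukaemias for the 9 genes, with 95% confidence intervals before adjustment for multiple testing, in each fraction and for leukaemia means. The interval of Itgam in c-kit-positive cells runs from 0.47 to 1.5 and that of Itgb1 from -1.14 to -0.20, and no gene passed after adjustment over all genes tested.

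Whether the difference between fractions itself depended on the label was tested with an interaction term. It passed for 0 of 19152 genes (0%) in limma, also with the replicate block, and 427 genes (2.23%) had an unadjusted p under 0.05, none of the 9 among them. Itgam had an interaction of 0.57 (95% interval -0.17 to 1.3, unadjusted p = 0.118). In c-kit-positive cells it was lower by 0.69, 1.05 and 0.97 in leukaemias 73, 75 and 79, and by 0.21, 0.49 and 0.32 in leukaemias 81, 83 and 85. With the replicate block the unadjusted p was 0.0023 and the adjusted p 0.700. Itgb1 had an interaction of -0.46 and Fn1 one of 0.16 (95% interval -0.87 to 1.19), which differs from 0 by less than its error.

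The other genes of the adhesion pathway were read from 8 lists in the comparison of fractions over both genotypes. Over all 19152 genes tested, 2.41% fell and 5.84% rose in that comparison, with a median difference of -0.03. These are the values to set beside the counts and the median of each list below. Of 12 other integrin α subunits tested, 1 rose in c-kit-positive cells and 1 fell, with a median difference of -0.01. Itga6, a laminin receptor chain, rose 1.44-fold (0.52, adjusted p = 0.00675, and 0.0564 without leukaemia 75). Itga1, a collagen receptor chain, fell 1.98-fold (-0.99, adjusted p = 0.00792). Of 7 other β subunits, 1 fell and 0 rose, with a median of -0.28. Itgb7, which pairs with α4 to bind MAdCAM-1, fell 2.15-fold (-1.11, adjusted p = 0.00574, and 0.0512 and 0.053 without leukaemias 73 and 75). Itgb2l, a gene close in sequence to Itgb2, had -0.52 without passing (adjusted p = 0.115), and passed with the replicate block (0.0117) and without leukaemia 73 (0.0338).

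Among 27 tested genes for integrin ligands and matrix proteins, 4 fell with Fn1 and 0 rose, and their median was -0.09. Tgfbi, a matrix protein bound by integrins, fell 4.09-fold (-2.03, adjusted p = 0.00034). Thbs1, thrombospondin 1, fell 3.81-fold (-1.93, adjusted p = 0.0152), with adjusted p-values of 0.0642, 0.0627 and 0.0709 without leukaemias 73, 79 and 83. Emilin2, an elastic fibre glycoprotein, fell 2.15-fold (-1.11, adjusted p = 0.00545). Lamc1, the laminin γ1 chain, fell 1.37-fold (-0.46, adjusted p = 0.00964, and 0.0616 without leukaemia 73). Each of the 4 was lower in the c-kit-positive fraction of 6 of 6 leukaemias.

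Of 21 genes that promote or restrain integrin activation from inside the cell, 3 fell and 0 rose, with a median of -0.02. Fyb, the adaptor ADAP of T cells and myeloid cells, fell 2.37-fold (-1.24, adjusted p = 0.000614). Rap1b, a small GTPase that drives integrin activation, fell 1.54-fold (-0.62, adjusted p = 0.00424). Rassf5, the Rap1 effector RAPL, fell by 0.29 (adjusted p = 0.0176), a call lost with a trended and robust fit (0.0709) and without leukaemia 73 (0.0604), 75 (0.110), 79 (0.0696) or 83 (0.0952). Cyth1, cytohesin-1, which binds the β2 tail, passed only under the knock-in label (-0.61, adjusted p = 0.0441), with -0.07 in the wild-type leukaemias, and the difference between these did not pass the interaction test. Over both genotypes Cyth1 had -0.34 (adjusted p = 0.0523), which passed with the replicate block (0.00924), a filter at the 50th percentile (0.0448), a trended and robust fit (0.0459) and without leukaemia 85 (0.031).

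Of 23 tested genes of the adhesion complex and its kinases, 1 rose and 2 fell, with a median of -0.11. Actn4, an α-actinin that ties integrins to actin, rose 1.47-fold (0.55, adjusted p = 0.00553, and 0.0551 without leukaemia 75). Zyx, zyxin, fell by 0.55 (adjusted p = 0.00825), with 0.0553, 0.0605 and 0.0638 without leukaemias 73, 75 and 83. Fgr, a Src-family kinase that acts below β2 integrins in myeloid cells, fell by 0.66 (adjusted p = 0.0113), with 0.0557 and 0.0537 without leukaemias 75 and 79.

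In the selectin list, 0 of 15 passed in limma, 6 had an unadjusted p under 0.05, as had 23.4% of all genes, and the median was -0.06. Its smallest p-values belonged to the glycosyltransferases B4galt1 (0.27, adjusted p = 0.0746) and St3gal6 (-0.27, adjusted p = 0.0767), which did pass with the replicate block (0.0278 and 0.0211). Among 16 partners of hyaluronan and CD44, 2 rose and 1 fell, with a median of -0.06. Hmmr, a hyaluronan-binding protein of the mitotic spindle, rose 1.41-fold (0.50, adjusted p = 0.00614, and 0.053 without leukaemia 75). Both other genes link CD44 to actin and went opposite ways. Rdx, radixin, rose by 0.43 (adjusted p = 0.0159), with 0.0903, 0.0598 and 0.0834 without leukaemias 75, 79 and 83. Msn, moesin, had -0.44 (adjusted p = 0.0309), but its call was lost when arrays were centred (0.0814), with the mean of its probe sets (-0.21, 0.108), with a trended and robust fit (0.061) and without leukaemia 73 (0.129), 75 (0.150), 81 (0.0628) or 83 (0.147).

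Among 20 other adhesion receptors tested, 2 rose and 2 fell, with a median of -0.09. The tetraspanins Cd81 and Cd63, membrane organizers that associate with integrins, rose 1.92-fold (0.94, adjusted p = 0.000177) and 2.17-fold (1.12, adjusted p = 0.0073, and 0.0602 without leukaemia 75). Plaur, the urokinase receptor, fell 2.03-fold (-1.02, adjusted p = 0.00484). Sirpa, the inhibitory receptor for CD47, had -0.30 at an adjusted p of 0.0484, which rose to 0.0519 with no filter, 0.112 with a trended and robust fit, 0.119 with centred arrays, and 0.136, 0.187, 0.146 and 0.209 without leukaemias 73, 75, 79 and 83. Of the 141 genes tested in the 8 lists, 0 passed in limma in a genotype comparison or in the interaction. With an unadjusted p under 0.05 there were 15 between labels in c-kit-positive cells, 6 in c-kit-negative cells and 14 over both fractions, and 7 for the interaction. The shares of all genes tested under the same rule were 9.89%, 6.1%, 8.37% and 2.23%, and nothing is read from these counts.

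**Figure D4:**
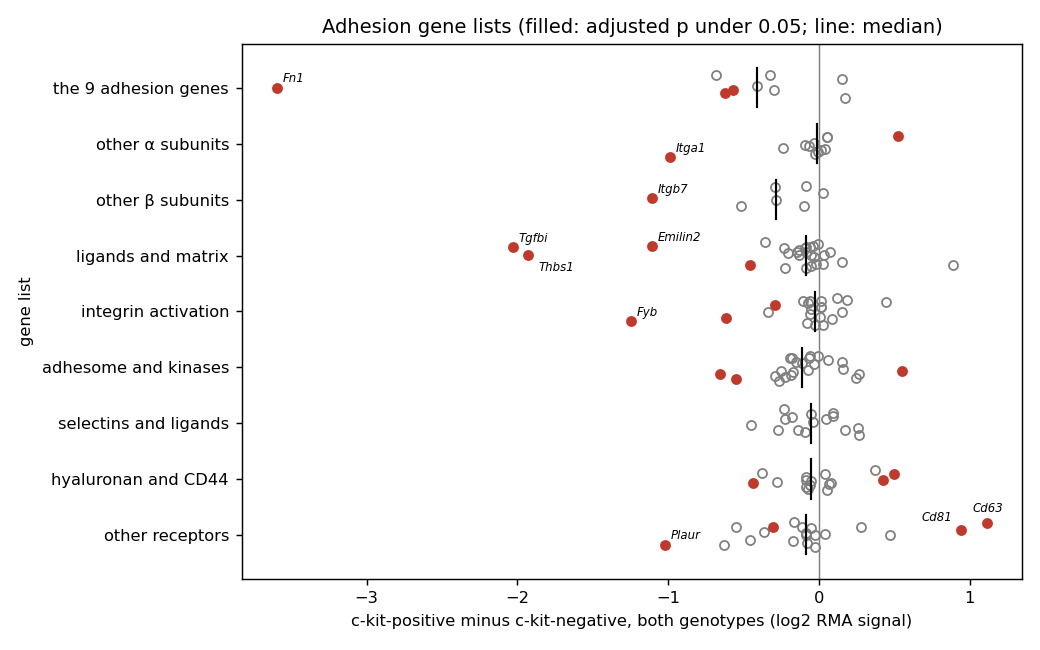
Difference in log2 RMA signal between c-kit-positive and c-kit-negative cells over both genotypes for the 9 genes and 8 lists of adhesion genes, 1 point per gene tested, with filled points at an adjusted p under 0.05 and a line at each list's median. Fn1 at -3.59 lies apart from all other points, and list medians lie between -0.28 and -0.01 against -0.41 for the 9 genes. The median over all genes tested was -0.03.

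Genes with the most similar pattern were sought for the 3 genes that passed, by the root mean square difference of centred log2 values over the 12 arrays. For Fn1, whose own SD over the arrays was 1.85, these were S100a6 (0.770), Wfdc17 (0.822), Mmp8 (0.825), Il13ra1 (0.863), Lilrb4a (0.897) and Xdh (0.911). Mmp8 is also among the late neutrophil markers. For Itgam, with an SD of 0.568, they were Ceacam1 (0.130), Fgr (0.231) and Vsir (0.250). For Itgb2, with an SD of 0.350, they were Iqgap1 (0.145), Tfe3 (0.149) and Tgm2 (0.153). Ceacam1 ran closest to Itgam, with 8.29 to 10.02 on c-kit-positive and 9.07 to 10.34 on c-kit-negative arrays, and its own difference between fractions was -0.55 (adjusted p = 0.129).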

How the data were processed

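Sorted cells of 6 leukaemias were measured on 12 arrays. The deposited table held log2 values for 41345 probe sets, made by the authors with RMA in Affymetrix Expression Console per the submitters' processing notes, with no version or genome build given in the sources used here. RMA subtracts background, quantile normalizes and summarises probes, so a global shift between groups would be removed. The values were used as deposited. An annotation gave 1 symbol to 23521 probe sets, several to 1814 and none to 16010, and 23328 matched RefSeq by Entrez identifier. The probe set with the highest mean was kept for each of 22180 genes. A gene was tested where at least 3 arrays exceeded log2 4.61, which is the 25th percentile of all values, and this left 19152.

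One limma model (version 3.58.1, R 4.3.3, statmod 1.5.0) with 4 group means was fitted to all 12 arrays, with lmFit, contrasts.fit and eBayes. Genotype over both fractions was tested on leukaemia means, 3 against 3. Tests were two-sided, with Benjamini-Hochberg adjustment over all genes tested and a threshold of 0.05. Single values were also tested exactly, by sign flips or label permutation. The scripts were tested on simulated data. Precision is limited by how few arrays there are.

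The titles give both arrays from 1 leukaemia the same number, and their deviations from the group means correlated at 0.141 to 0.706, each above 0.1. The leukaemia number was therefore taken as pairing the samples, and a fit with it as a replicate block is given where it changed a call.

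The 9 genes, the 8 adhesion lists, the 10 cell type marker lists and the tests were chosen with earlier results of these data known. From each adhesion list, at most 6 genes past the threshold are named, and if fewer than 2 passed, those with the smallest p up to 2. Lists are described by counts and medians. Alternatives were the block, repeated quantile normalization, centring, other filters, the mean of probe sets, a trended and robust fit, only the groups compared, and leaving out each leukaemia. Promoter windows are from RefSeq.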

Additional observations from a re-analysis of the deposited data

How the results depend on the processing

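Of 855 values of the 9 genes under alternative settings (63 results), 787 kept direction and side of the threshold, 20 gained a call, 8 lost one and 40 turned sign. The cause was not tested for the changes below. The replicate block moved the number of genes called between fractions from 147 to 2109 in the wild-type leukaemias, from 360 to 1666 under the knock-in label and from 1580 to 3758 over both, and of the 9 genes from 1 to 4, 1 to 4 and 3 to 6. It moved the genotype count over both fractions from 5 to 34, with the leukaemia as a random term at a correlation of 0.353, and that in c-kit-positive cells from 27 to 23. Among the 9 genes it changed no other call than those given beside them. The same held for the named genes of the lists between fractions over both genotypes. Their other comparisons were not followed under the block. With only the groups compared, the counts became 898 (3 of the 9 genes) and 145 between fractions and, between labels, 64 against 27 in c-kit-positive and 1 against 12 in c-kit-negative cells. Centring gave 69 in the wild-type leukaemias and 2 for genotype over both fractions. Repeated quantile normalization gave 2 of the 9 genes in the wild-type leukaemias and 543 genes under the knock-in label. The mean of probe sets gave 17 genes between labels in c-kit-positive cells, and the trended and robust fit 9 over both fractions. Itgax turned sign with repeated normalization in the genotype comparison of c-kit-positive cells (-0.0193) and of both fractions (-0.0205), and with centring (-0.0191 and -0.0173, and -0.0035 for its interaction).

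Without 1 leukaemia at a time, the genes called ranged from 1 to 662 between fractions in the wild-type leukaemias, 58 to 367 under the knock-in label and 503 to 2087 over both, 0 to 1 for the interaction, and 0 to 123, 3 to 83 and 2 to 115 between labels in c-kit-positive cells, c-kit-negative cells and over both. The lowest of these came without leukaemia 73 (1 gene), 83 (58) and 75 (503), and the highest between labels without leukaemia 81. Of the 9 genes, 0 to 3, 1 to 2 and 1 to 4 were called between fractions, and 0 to 0 otherwise. Signs turned for the interaction of Fn1 (-0.11 to 0.56), Itga4 (-0.37 to 0.38), Itgal (-0.27 to 0.22) and Itgax (-0.13 to 0.19), and for the fraction difference of Itga4 in the wild-type leukaemias (-0.74 to 0.0126) and of Itga5 (-0.30 to 0.23) and Itgb1 (-0.23 to 0.14) under the knock-in label. Between labels in c-kit-positive cells they turned for Itgal (-0.22 to 0.0118), Itgax (-0.0566 to 0.13) and Cd44 (-0.23 to 0.14), in c-kit-negative cells for Itga5 (-0.25 to 0.33), Itgal (-0.44 to 0.28), Itgax (-0.12 to 0.10), Itgb2 (-0.0143 to 0.27) and Cd44 (-0.16 to 0.44), and over both for Itga5 (-0.31 to 0.02), Itgal (-0.33 to 0.15), Itgax (-0.0697 to 0.0945) and Cd44 (-0.19 to 0.29). None of these differences had passed the test. Arrays measure RNA and not surface protein, and 3 leukaemias a label bound every genotype difference only loosely.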

Other observations

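A further probe set that the annotation assigns to both Itga4 and its neighbour Cerkl was left out of the gene's value. Its log2 signal ran from 5.25 to 6.14 over the 12 arrays, with the highest value on the c-kit-positive array of leukaemia 79. On the other arrays this shared probe set reached at most 5.69, near or below the array medians (5.56 to 5.71), so little can be read from its direction. It was higher in the c-kit-positive fraction of 5 leukaemias and lower in leukaemia 81 (5.44 against 5.57), whereas the probe set of Itga4 alone was lower there in 5 of 6, all but leukaemia 79.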
